A study of Capra hircus with 40 samples.

Results

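The uterus and the ovary of newborn female goats were compared at day 1 after birth by sequencing of microRNAs (miRNAs). The comparison takes the 5 uterus and the 5 ovary libraries of day 1, 10 of the 40 libraries of the series, and all 427 miRNAs in the table. The goats were Jining gray goats, a breed whose ovary and uterus the study followed from birth to sexual maturity on a single farm. The other 30 libraries come from the same 2 tissues at months 2, 4 and 6. Each library is labelled as a separate individual within its tissue and age. In the fit of all 40 libraries, p-values rest on the spread between individuals within groups, estimated over all ages and both tissues. Day 1 libraries held 7005651 to 8442089 counts. No 2 of them had identical counts.

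A miRNA is a short RNA, cut from a hairpin transcript, that guides a protein complex to matching messenger RNAs and lowers their output. Either side of the hairpin can give a mature miRNA, named the 5p and the 3p arm. Around birth the ovary holds germ cells and the supporting cells that enclose them in follicles. The uterus is then a tube of simple epithelium in stroma with muscle layers still forming. Many miRNAs are made mainly in 1 kind of cell. In whole tissue, however, fewer cells of a type and less of an RNA in each cell cannot be told apart.

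Levels are CPM, the counts of a miRNA per 1000000 counts of its library, listed in the order of replicates 1 to 5. Log2 changes are uterus minus ovary ± SE, from edgeR's quasi-likelihood fit of all 40 libraries with TMM scaling, which corrects for a few miRNAs taking up much of a library. A miRNA is called where its p, adjusted over every miRNA in the test (Benjamini-Hochberg), was under 0.05.

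The library labelled ovary replicate 3 stood apart from the other 4 ovary libraries. In it miR-143-3p, a miRNA of smooth muscle and other mesenchymal cells, took 73.3% of the counts (Wilson 95% interval 73.28% to 73.34%, counting error only), against 8.84% to 15.7% in the other ovary and 22.4% to 32.5% in the uterus libraries. Its miR-202-5p, a miRNA known from the gonads, was at 2.61 CPM, against 565 to 7818 CPM in the other ovary and at most 0.856 CPM in the uterus libraries. Its rank correlation (Spearman) with the other ovary libraries had a median of 0.911 over 4 pairs, and with the uterus libraries 0.934 over 5 pairs. The other ovary libraries had a median of 0.961 among themselves over 6 pairs, and the uterus libraries 0.963 over 10 pairs. Other miRNAs went both ways. In this library miR-206 was at 2.74 CPM and miR-196b at 84.5 CPM, inside the range of the other ovary libraries and below every uterus library. For miR-196b that ovary range was wide, at 4.18 to 537 CPM. In contrast, miR-218 was at 703 CPM, above the other ovary libraries (110 to 234 CPM) and, in CPM, inside the uterus range (391 to 874 CPM). Whether its label or its piece of tissue is right was not tested. Since most of its counts belong to 1 miRNA, its CPM of all others is lowered. Its TMM factor was 0.389, against 0.912 to 1.26 in the other 9. The fit in effect divides CPM by this factor, so on its scale ovary replicate 3 stands higher. Its miR-218 lay above every uterus library on that scale. Orders of libraries and overlaps of groups are given in CPM unless the scale of the fit is named. The counts of calls, the list medians printed and the sizes or tests of called miRNAs are therefore given with this library and without it.

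With all libraries, 17 of 350 tested miRNAs were called between the tissues at day 1, 4.86% of those tested. Of these, 6 were higher in uterus (1.71%) and 11 lower (3.14%). Without ovary replicate 3, 27 of 353 were called (7.65%), 17 higher (4.82%) and 10 lower (2.83%), and 14 miRNAs were called both ways, each with the same sign. The miRNAs called only with it were miR-215-5p, miR-22-3p and miR-378-5p. Those called only without it were miR-1, miR-10a-3p, miR-133a-3p, miR-133a-5p, miR-133b, miR-141, miR-147-3p, miR-155-5p, miR-182, miR-183, miR-218, miR-542-5p and miR-582-5p. The count also moved with the libraries that set the spread. Fitted on the 10 day 1 libraries alone, 25 of 324 were called (7.72%), 13 higher (4.01%) and 12 lower (3.70%). On the 9 without ovary replicate 3, 58 of 331 were called (17.5%), 32 higher (9.67%) and 26 lower (7.85%). These 58 include all 27 of the fit of all ages without that library. The biological coefficient of variation was 0.628 over all ages and 0.453 over those 9 libraries. Another 6 libraries, of later ages, had earlier been found to lie apart from their groups: ovary month 6 replicates 2 and 4, uterus month 2 replicate 1, month 4 replicate 4 and month 6 replicates 4 and 5. Without these 6 the fit of all ages gave 36 calls, and without these and ovary replicate 3 it gave 60.

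**Figure D1:**
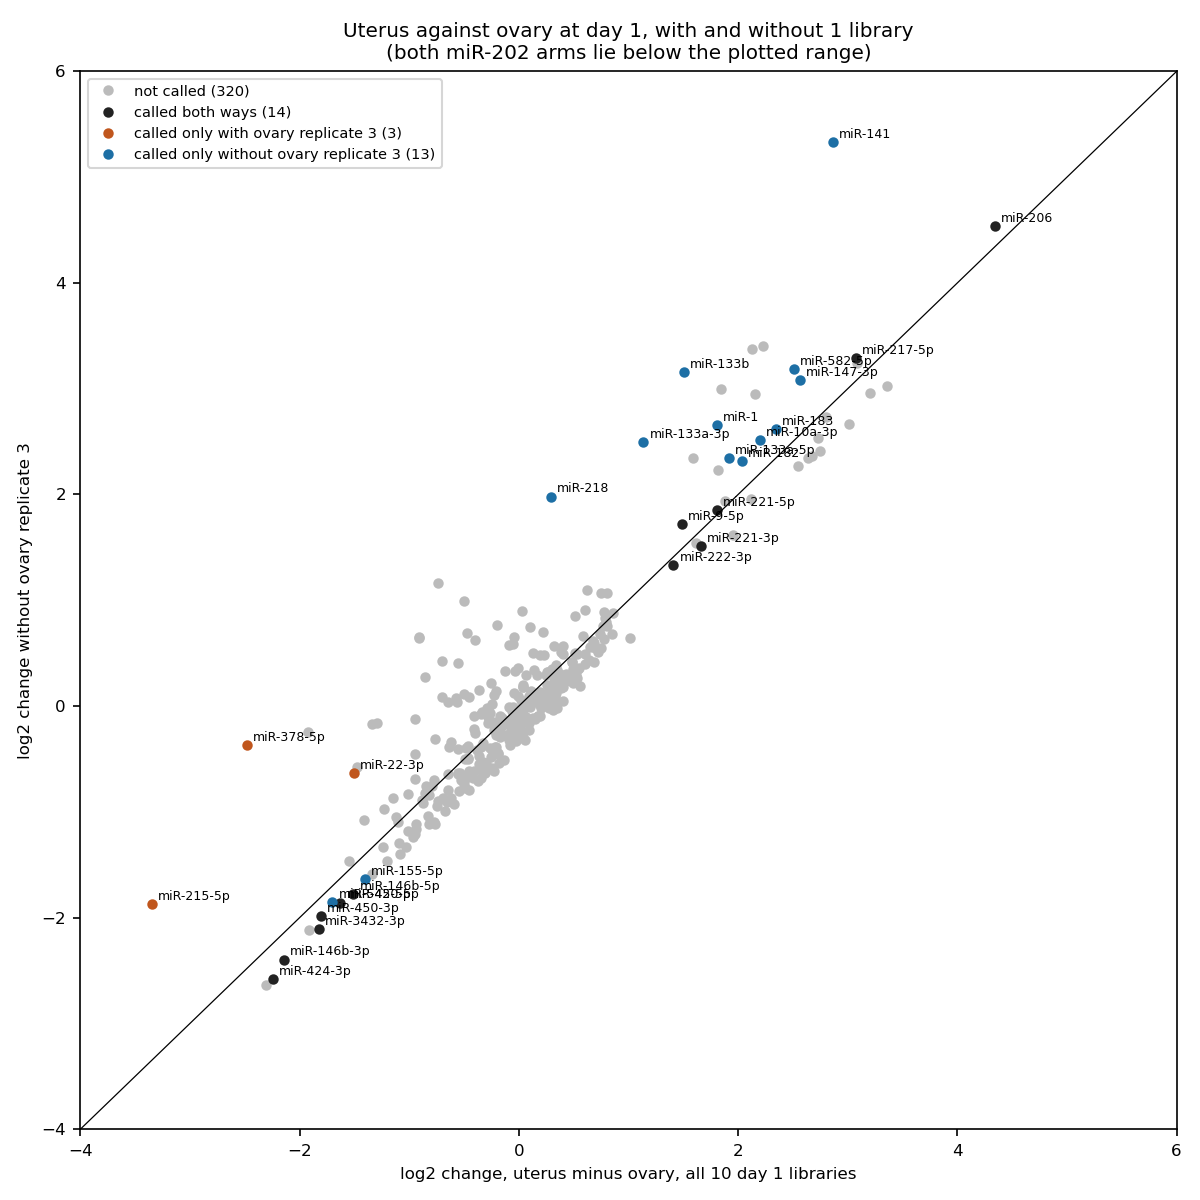
Each point is a miRNA, with its log2 change (uterus minus ovary) from all libraries on the horizontal axis and without ovary replicate 3 on the vertical axis. The line marks equal values and colours show which fits called it. The 14 miRNAs called both ways lie near the line, miR-378-5p and miR-22-3p lie above it and nearer to 0, and both miR-202 arms, at log2 changes below -9, are off the plotted range.

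The median log2 change over all tested miRNAs was -0.03, and -0.01 without ovary replicate 3, and the median of its size was 0.41. Groups did not overlap in CPM for 31 of 350 miRNAs (8.86%), 27 with every uterus library above every ovary library (7.71%) and 4 below (1.14%). Without ovary replicate 3 this was so for 72 (20.6%), 30 above (8.57%) and 42 below (12%). Of the 17 calls, 8 had groups that did not overlap, and of the 27 calls without that library, 26.

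The gonad miRNA miR-202 gave the widest gap. miR-202-5p, the arm known from ovary and testis support cells, stood at 565, 1184, 2.61, 7818 and 2010 CPM in ovary and at 0.803, 0.246, 0.592, 0.691 and 0.856 CPM in uterus. Every ovary library was above every uterus library, but ovary replicate 3 lay far closer to the uterus than to its own group. The uterus values rest on 2 to 6 counts a library. The log2 change was -11.54 ± 1.29 (adjusted p = 3.82e-08) and -11.96 ± 1.12 without that library. It stayed called under all 22 alternatives run, with adjusted p from 2.83e-35 to 0.0462. The ratio of mean CPM, ovary over uterus, was 3631, and 4537 without ovary replicate 3.

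Its partner arm miR-202-3p was much rarer, at 7.99, 9.16, 0, 38.7 and 16.9 CPM in ovary, and had 0 counts in all 5 uterus libraries. With a floor of 3 counts in each uterus library, the mean of the ovary was at least 37.0-fold higher, and at least 46.2-fold without ovary replicate 3. It was called both ways (adjusted p = 2.75e-05 and 7.05e-07). With no count in uterus, its fitted log2 change of -9.51 depends on the model's prior count and is not used as a size. Among the ovary libraries that held it, replicate 4 was highest for both arms and replicate 1 lowest. The other gonad and granulosa cell miRNAs gave no calls. miR-383 stood at 51.4, 14.5, 31.7, 9.95 and 11.3 CPM in ovary and 25.4, 25.1, 10.5, 33.2 and 14.3 CPM in uterus, with overlapping groups.

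Of the striated muscle miRNAs, 5 of 6 tested had every uterus library above every ovary library in CPM. On the scale of the fit, miR-133a-3p and miR-133b of ovary replicate 3 did not keep this order. Striated muscle miRNAs, made in skeletal and heart muscle from paired hairpins, steer muscle cell growth and differentiation. Called higher were 1 member, miR-206, with all libraries and 5 without ovary replicate 3. Their median log2 change was 1.65, against -0.03 over all miRNAs, and 2.58 without that library. The exception to the order in CPM was miR-499-5p.

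miR-206, found mainly in skeletal muscle, stood at 2.09, 6.90, 2.74, 2.39 and 3.11 CPM in ovary and at 85.3, 110, 36.0, 88.9 and 98.2 CPM in uterus. Uterus replicate 3 was the lowest of its group and still over 5 times the highest ovary library. The log2 change was 4.34 ± 0.69 (adjusted p = 3.12e-05), and 4.53 ± 0.77 without ovary replicate 3. The ratio of means was 24.3, and the call held under all 22 alternatives. miR-133b, its neighbour within 50 kb in the RefSeq goat annotation, was much rarer, at 0 to 3.36 CPM in ovary and 3.62 to 9.40 CPM in uterus. Its log2 change was 1.50 ± 0.78 (adjusted p = 0.311), and 3.16 ± 0.79 without ovary replicate 3 (adjusted p = 0.00919).

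miR-1 was the most abundant member, at 208, 1068, 2128, 1583 and 1618 CPM in ovary and at 7874, 6821, 6114, 6873 and 5760 CPM in uterus. The uterus libraries lay close together and above all ovary libraries, and ovary replicate 1 was lowest. Its log2 change of 1.81 ± 0.63 was not called with all libraries (adjusted p = 0.0880) but was 2.66 ± 0.66 without ovary replicate 3 (adjusted p = 0.00919). miR-133a-3p, whose hairpin neighbours miR-1, stood at 24.8, 82.0, 159, 36.7 and 44.7 CPM in ovary and at 171, 285, 185, 340 and 317 CPM in uterus. In CPM, ovary replicate 3 came nearest to the uterus, and on the scale of the fit it lay above every uterus library. The log2 change of miR-133a-3p went from 1.14 ± 0.46 (adjusted p = 0.159) to 2.50 ± 0.34 without that library (adjusted p = 1.39e-06). The remaining member tested, miR-499-5p of the heart and slow muscle, was at -0.42 and not called. Reads that fit both miR-1 and miR-206, or miR-133a and miR-133b, may be split between them in a way that is not given in the sources used here.

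The linked pair miR-221 and miR-222, which act on cell cycle inhibitors and are known from vessel walls and dividing cells, was higher in uterus in 3 of 3 tested members. miR-221-3p was at 258, 144, 52.3, 226 and 176 CPM in ovary and 426, 397, 685, 485 and 615 CPM in uterus. miR-221-5p was at 22.6, 24.9, 14.8, 48.1 and 25.4 CPM against 60.1, 70.9, 150, 82.1 and 129 CPM. miR-222-3p was at 112, 60.8, 30.6, 119 and 73.7 CPM against 140, 134, 318, 201 and 240 CPM. In each of the 3 the groups did not overlap, ovary replicate 3 was lowest in CPM and uterus replicate 3 highest. On the scale of the fit the groups stayed apart, but ovary replicate 3 was lowest only for miR-221-3p. The log2 changes were 1.66 ± 0.34, 1.81 ± 0.35 and 1.41 ± 0.32 (adjusted p = 0.00158, 0.000727 and 0.00476), and 1.51, 1.85 and 1.33 without ovary replicate 3, all called. miR-221-5p held under all 22 alternatives. Without uterus replicate 3, miR-221-3p was at 1.24 (adjusted p = 0.0658) and miR-222-3p at 0.90 (adjusted p = 0.103). Without ovary replicate 2 or 5 both also missed the threshold, with adjusted p from 0.0538 to 0.0606.

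The cluster of miR-424, miR-450 and miR-542, X-linked hairpins known as brakes on the cell cycle and, in the ovary, from granulosa cells, was lower in uterus. Of 6 tested members, 3 were called lower with all libraries and 4 without ovary replicate 3, and none was above 0. The median was -1.76, against -0.03 over all miRNAs, and -1.92 without that library. The summed level of the cluster was 2092, 2819, 544, 5834 and 5317 CPM in ovary and 1956, 1365, 882, 1120 and 648 CPM in uterus. In CPM, ovary replicate 3 was thus the lowest library of all 10, and without it the groups of the sum did not overlap. On the scale of the fit, its sum lay inside the uterus range.

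miR-424-3p was at 266, 114, 14.9, 229 and 172 CPM in ovary and at 38.7, 28.2, 21.3, 41.3 and 22.8 CPM in uterus. In CPM, ovary replicate 3 fell below every uterus library, while the other 4 lay above them. On the scale of the fit, ovary replicate 3 was just above them too. The log2 change of miR-424-3p, -2.25 ± 0.47 (adjusted p = 0.00158), was called under all 22 alternatives, and was -2.58 ± 0.45 without ovary replicate 3. Its other arm, miR-424-5p, was at 339, 584, 67.2, 1298 and 1160 CPM against 85.2, 189, 85.4, 159 and 122 CPM. With a change of about the same size but more spread, -2.30 ± 0.84, it was not called (adjusted p = 0.105, and 0.0517 without ovary replicate 3).

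miR-450-5p was at 1021, 1136, 274, 1809 and 1908 CPM in ovary and at 596, 383, 318, 386 and 232 CPM in uterus, a log2 change of -1.63 ± 0.39 (adjusted p = 0.00715), and of -1.86 ± 0.43 without ovary replicate 3. The call was lost in 1 of 22 alternatives (adjusted p = 0.0839). In CPM, only ovary replicate 3 lay among the uterus libraries, and on the scale of the fit it was above them. miR-450-3p, at 1.71 to 3.04 CPM in uterus, changed by -1.81 ± 0.43 (adjusted p = 0.00640), and by -1.98 ± 0.45 without that library. miR-542-5p just missed the threshold at -1.70 ± 0.54 (adjusted p = 0.0550) and was called without ovary replicate 3 at -1.85 ± 0.55 (adjusted p = 0.0326). miR-542-3p, at -0.82 ± 0.64, was not called either way. In CPM, every uterus library lay within the range of the ovary libraries for miR-542-3p, with uterus replicate 1 the highest of them at 1231 CPM. Without ovary replicate 3, uterus replicate 5 was below that range.

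**Figure D2:**
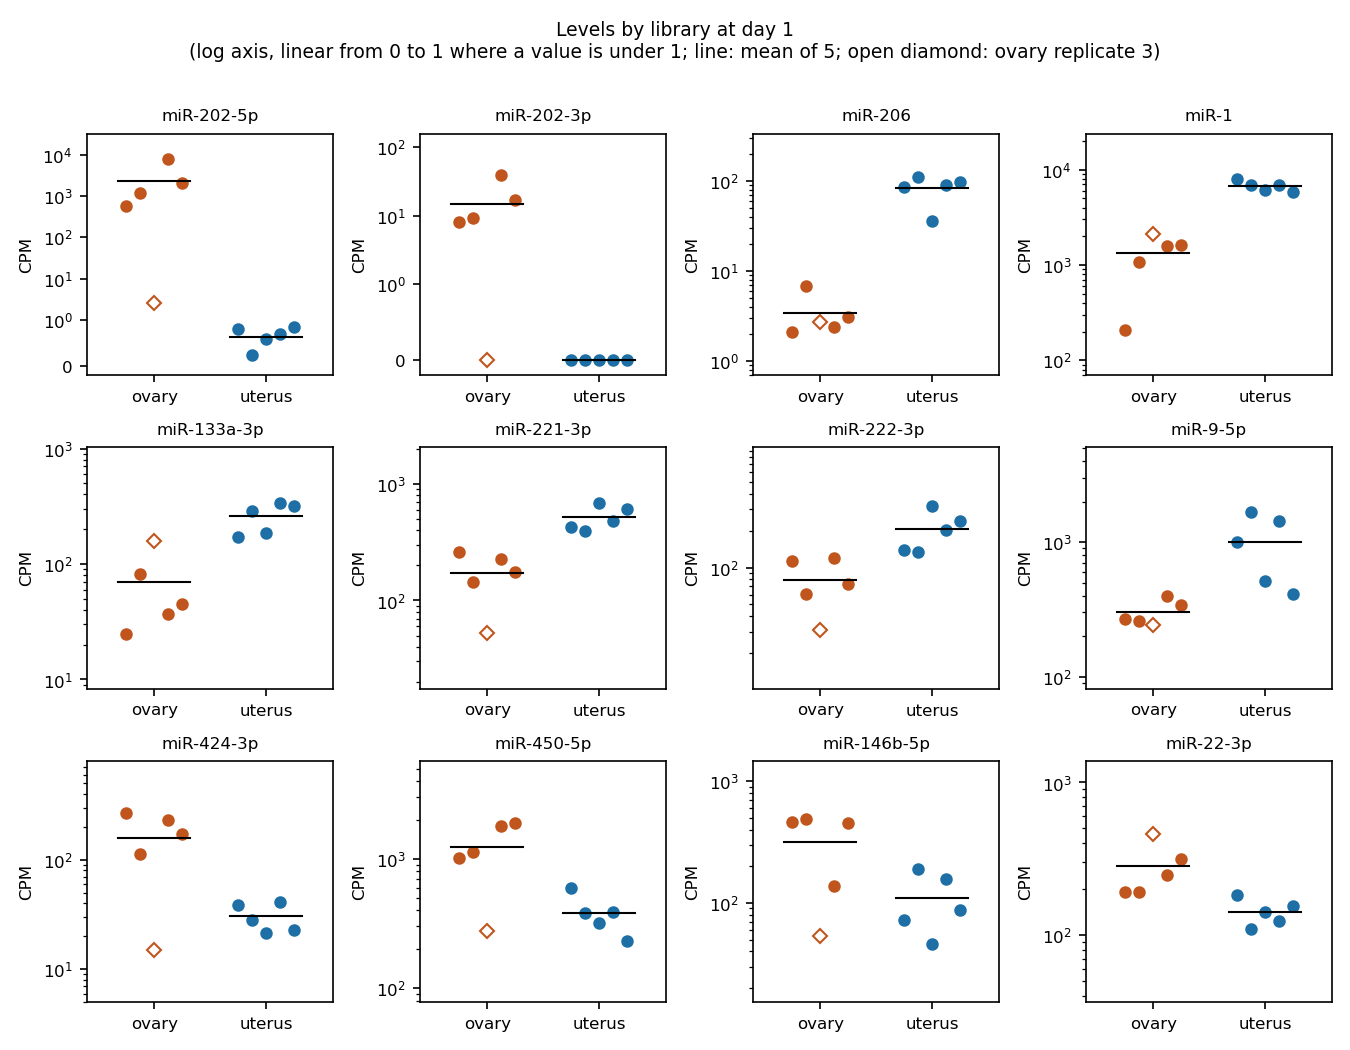
Levels in CPM (log axis, linear from 0 to 1 CPM where a value is under 1) of 12 miRNAs in the 5 ovary and 5 uterus libraries of day 1, with the mean of each group as a line and ovary replicate 3 as an open diamond. The diamond lies near the uterus for miR-202-5p, miR-424-3p and miR-450-5p, and with the ovary for miR-206, and uterus points lie above all ovary points for miR-206, miR-1, miR-221-3p and miR-222-3p. In that library the CPM of these 12 miRNAs is lowered by its share of miR-143-3p.

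Among leukocyte miRNAs, 2 of 9 tested were called lower in uterus, and 3 without ovary replicate 3. All were arms of miR-146b and miR-155, which curb and drive inflammatory signalling and are not made in leukocytes alone. miR-146b-5p was at 460, 488, 53.9, 137 and 450 CPM in ovary and at 71.8, 191, 45.7, 156 and 87.5 CPM in uterus. Ovary replicates 3 and 4 lay inside the uterus range, and the other 3 above it. The log2 change was -1.51 ± 0.44 (adjusted p = 0.0336). It was -1.78 ± 0.48 (adjusted p = 0.0133) when ovary replicate 3 was left out. It missed the threshold in 6 of 22 alternatives, with adjusted p up to 0.138, among them library totals alone and leaving out ovary replicate 2. miR-146b-3p, at 1.37 to 12.3 CPM in ovary and 0.937 to 2.95 CPM in uterus, changed by -2.15 ± 0.52 (adjusted p = 0.00751), and by -2.40 ± 0.51 without ovary replicate 3.

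miR-155-5p was at 803, 450, 84.2, 398 and 324 CPM in ovary and at 127, 141, 165, 122 and 177 CPM in uterus. In CPM, ovary replicate 3 was again the lowest library of all and the other 4 were above every uterus library. On the scale of the fit, ovary replicate 3 was above every uterus library too. miR-155-5p was not called with all libraries (-1.41 ± 0.46, adjusted p = 0.0627) and was called without that one (-1.64 ± 0.50, adjusted p = 0.0371). The median of the list was -0.26, and -0.39 without that library. Its other tested members, including miR-150 of lymphocytes at -0.26 and miR-223-3p of granulocytes at 0.25, were not called. The summed level of the list was 394 to 2509 CPM in ovary, 1551 to 2509 CPM without replicate 3, and 783 to 1301 CPM in uterus. The part of leukocyte number in the miR-146b and miR-155 values was not tested.

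Several single miRNAs were called as well. miR-9-5p, best known from the nervous system, was at 268, 261, 243, 395 and 343 CPM in ovary and at 999, 1680, 510, 1429 and 407 CPM in uterus. All uterus libraries were above all ovary libraries in CPM, with uterus replicate 5 only just so. On the scale of the fit, ovary replicate 3 lay inside the uterus range. The log2 change was 1.49 ± 0.43 (adjusted p = 0.0319), and 1.72 ± 0.44 without ovary replicate 3. The call was lost with many single libraries: leaving out any of ovary replicates 1, 2, 4 and 5 or uterus replicates 1 to 4 took the adjusted p to 0.0517 to 0.159, with changes from 1.05 to 1.40. No other member of the 10 neural miRNAs tested was called, and their median was 0.09, and 0.11 without ovary replicate 3, a direction that turned to -0.02 with another scaling.

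miR-217-5p, known from the pancreas, was at 0.615, 0.833, 0.871, 1.72 and 0.838 CPM in ovary and at 13.4, 17, 1.78, 11.3 and 4.57 CPM in uterus. The groups did not overlap in CPM, but uterus replicate 3 nearly met ovary replicate 4. On the scale of the fit, ovary replicate 3 was above uterus replicate 3. Its log2 change was 3.07 ± 0.85 (adjusted p = 0.0232), and 3.29 ± 0.91 without ovary replicate 3. The call was lost in 6 of 21 alternatives, among them leaving out ovary replicate 1, 2 or 5 or uterus replicate 1 or 2, where the adjusted p reached up to 0.0573. miR-216b, its neighbour within 50 kb, was lower still, at 0 to 0.738 CPM against 0.285 to 3.69 CPM. It was high in the same uterus libraries, replicates 1, 2 and 4, and its change of 2.80 ± 0.87 was not called (adjusted p = 0.0528).

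miR-3432-3p was at 6.52, 3.45, 0.622, 8.75 and 4.31 CPM in ovary and at 1.61, 0.615, 0.829, 1.80 and 1.28 CPM in uterus, a log2 change of -1.83 ± 0.52 (adjusted p = 0.0265), and of -2.11 ± 0.55 without ovary replicate 3. The call was lost in 2 of 22 alternatives, with adjusted p up to 0.0566. Only ovary replicate 3 overlapped the uterus. Its far more abundant 5p arm, at 441, 368, 96.5, 1044 and 617 CPM against 170, 183, 175, 240 and 175 CPM, was at -1.34 ± 0.51 and not called (adjusted p = 0.120, and 0.0685 without ovary replicate 3).

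Another 3 calls rested on ovary replicate 3. miR-22-3p, a broadly made miRNA of muscle and metabolism, was at 193, 193, 461, 249 and 317 CPM in ovary and at 183, 109, 142, 123 and 156 CPM in uterus. Ovary replicate 3 was the highest, but the groups did not overlap in CPM even so. On the scale of the fit, ovary replicate 1 lay inside the uterus range. The log2 change went from -1.51 ± 0.40 (adjusted p = 0.0161) to -0.64 ± 0.30 without it (adjusted p = 0.202).

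miR-378-5p, from a hairpin within a gene of mitochondrial metabolism, was at 4.43, 3.21, 34.4, 8.62 and 5.27 CPM in ovary and at 2.41, 2.09, 6.16, 3.18 and 4.71 CPM in uterus. Its change went from -2.48 ± 0.63 (adjusted p = 0.0100) to -0.37 ± 0.40 (adjusted p = 0.763). miR-215-5p, known from gut and kidney, was at 2.58, 4.76, 32.7, 10.2 and 17.2 CPM against 2.01, 2.95, 1.54, 1.52 and 3.14 CPM, and its change went from -3.35 ± 0.82 (adjusted p = 0.00765) to -1.87 ± 0.70 (adjusted p = 0.0851). In both, ovary replicate 3 was the highest library, far above the others for miR-378-5p and less so for miR-215-5p. The same library was also highest in miR-451-5p of red blood cells, at 232 CPM against 37.4 to 87.9 CPM in the other ovary and 28.1 to 78.0 CPM in the uterus libraries.

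In CPM, the miR-200 family stood higher in every uterus library than in any ovary library, with no member called when all libraries were used. It holds cells in the epithelial state by repressing ZEB transcription factors. Its summed level was 4541, 1748, 4403, 485 and 588 CPM in ovary and 10885, 7181, 17641, 12153 and 20332 CPM in uterus, and no ovary library reached the lowest uterus library. In CPM, groups did not overlap in any of the 5 members. On the scale of the fit, ovary replicate 3 lay inside the uterus range for the sum, miR-200b, miR-200c and miR-429. All 5 changes were above 0, with a median of 2.15, against -0.03 over all miRNAs, and 0 were called. Their SE over all ages, 1.12 to 1.25, was large. Without ovary replicate 3 the median was 3.38 and 1 member was called, and in the fit of the 9 day 1 libraries 5 of 5 were called.

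That member was miR-141, at 2.09, 1.07, 9.96, 0.531 and 0.599 CPM in ovary and 36.4, 39.1, 39.6, 34.8 and 54.1 CPM in uterus. Uterus libraries were alike, while ovary replicate 3 was over 4 times the next ovary library. The log2 change was 2.86 ± 1.23 (adjusted p = 0.195), and 5.33 ± 1.36 without that library (adjusted p = 0.0101). miR-200b, the most abundant member, was at 3125, 1129, 3151, 242 and 348 CPM in ovary and 7015, 3798, 12505, 7489 and 12864 CPM in uterus. Within the ovary, replicates 1 and 3 were high and replicates 4 and 5 low, as for miR-200c, at 386, 124, 357, 7.83 and 20.0 CPM. Its log2 change was 1.84 ± 1.24, and 2.99 ± 1.38 without ovary replicate 3, with neither called. How reads were divided among miR-200b, miR-200c and miR-429, whose sequences are close, is not given in the sources used here.

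The linked miR-183, miR-96 and miR-182, made in sensory and other epithelia, had log2 changes above 0. Of 3 tested, 0 were called with all libraries and 2 without ovary replicate 3, with medians of 2.03 and 2.35. miR-183 was at 69.1, 34.5, 32.5, 15.1 and 44.4 CPM in ovary and 97.5, 95, 306, 371 and 284 CPM in uterus. The groups did not overlap, and uterus replicates 3 to 5 were well above replicates 1 and 2. Its log2 change was 2.34 ± 0.75 (adjusted p = 0.0591), and 2.62 ± 0.81 without ovary replicate 3 (adjusted p = 0.0371). miR-182, at 2.03 ± 0.67 and 2.31 ± 0.72, had adjusted p of 0.0670 and 0.0373. miR-96 was rarer, at 4.67, 2.50, 4.48, 1.06 and 1.80 CPM in ovary and 4.15, 4.30, 17.8, 11.6 and 20.3 CPM in uterus. Its groups overlapped, and its change of 1.59 ± 0.84 was not called (adjusted p = 0.313, and 0.0851 without ovary replicate 3).

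The miR-34bc/miR-449 family, which serves the making of motile cilia, differed more within each tissue than between them. Its summed level was 2148, 1110, 41.5, 28.9 and 25.8 CPM in ovary and 182, 258, 5057, 165 and 22768 CPM in uterus. In both tissues 2 libraries were high, ovary replicates 1 and 2 and uterus replicates 3 and 5, and the groups overlapped. miR-34c-5p made up most of it, at 1709, 943, 33.6, 25.2 and 22.6 CPM in ovary and 124, 210, 3864, 143 and 20233 CPM in uterus. miR-449a-5p, from a different locus, was at 191, 71.1, 4.11, 1.33 and 0.958 CPM in ovary and 30.9, 24.5, 841, 2.07 and 558 CPM in uterus, high in the same 4 libraries. All 8 members tested were above 0, with a median log2 change of 2.74, and 2.46 without ovary replicate 3, and 0 were called either way. miR-34c-5p itself was at 3.35 ± 2.00 (adjusted p = 0.395).

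Within the uterus, miR-10a was highest in the same libraries as this family. miR-10a-5p, encoded among HOX genes that set position along the body axis, was at 14617, 15379, 9104, 3046 and 2663 CPM in ovary and 23641, 14126, 74625, 18556 and 60841 CPM in uterus. It was highest in uterus replicates 3 and 5, and within the ovary it was lowest in replicates 4 and 5. On the scale of the fit, ovary replicate 3 was the highest ovary library for miR-10a-5p. miR-10b-5p ran the other way in uterus, at 63610, 86020, 37060, 124424 and 23299 CPM, lowest in replicates 3 and 5, and was at 68879, 81208, 22050, 62617 and 75428 CPM in ovary. Whether the piece of the tract sampled differed among these libraries was not tested.

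Of 6 tested HOX miRNAs, 0 were called with all libraries and 1 without ovary replicate 3, miR-10a-3p. Its log2 change was 2.20 ± 0.71 (adjusted p = 0.0627), and 2.52 ± 0.77 without that library (adjusted p = 0.0371). miR-10a-5p was at 1.82 ± 0.74 and not called. miR-196b was at 4.18, 385, 84.5, 327 and 537 CPM in ovary and 1365, 1628, 743, 1450 and 808 CPM in uterus. The groups did not overlap, and ovary replicate 1 was far below the others. The change of 2.11 ± 1.25 was not called (adjusted p = 0.386), nor under any of the 22 alternatives. Its relative miR-196a pointed the opposite way, at 8.49, 150, 19.5, 98.7 and 114 CPM in ovary and 38.8, 29.1, 11.1, 14.8 and 12 CPM in uterus, with a change of -1.91 ± 1.23 that was not called. Ovary replicate 1 was the lowest ovary library for both.

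The miR-143/miR-145 cluster, a mark of smooth muscle and fibroblasts, had 0 calls of 4 tested. miR-143-3p was at 88444, 156515, 733103, 146470 and 151162 CPM in ovary and 316509, 268367, 324755, 224150 and 292105 CPM in uterus. The other 4 ovary libraries lay below all uterus libraries and ovary replicate 3 above them. The sign of the change thus hung on that library: -0.74 ± 0.57 with it (adjusted p = 0.576) and 1.16 ± 0.43 without it (adjusted p = 0.0851), and 1.21 ± 0.24 in the fit of the 9 day 1 libraries (adjusted p = 0.00537).

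For miR-145-5p and miR-143-5p, ovary replicate 3 lay inside the range of the other ovary libraries in CPM, a scale lowered in that library. miR-145-5p was at 5063, 5360, 4924, 6752 and 4681 CPM in ovary and 6687, 7186, 8785, 10852 and 12266 CPM in uterus, so that only ovary replicate 4 and uterus replicate 1 overlapped. Its log2 change was 0.51 ± 0.30, and 0.85 ± 0.28 without ovary replicate 3 (adjusted p = 0.0517). miR-143-5p was at 158, 212, 260, 263 and 258 CPM in ovary and 614, 488, 408, 368 and 375 CPM in uterus. Those groups did not overlap in CPM, with a change of 0.62 ± 0.38, and 1.10 ± 0.37 without ovary replicate 3, called neither way (adjusted p = 0.406 and 0.0610).

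**Figure D3:**
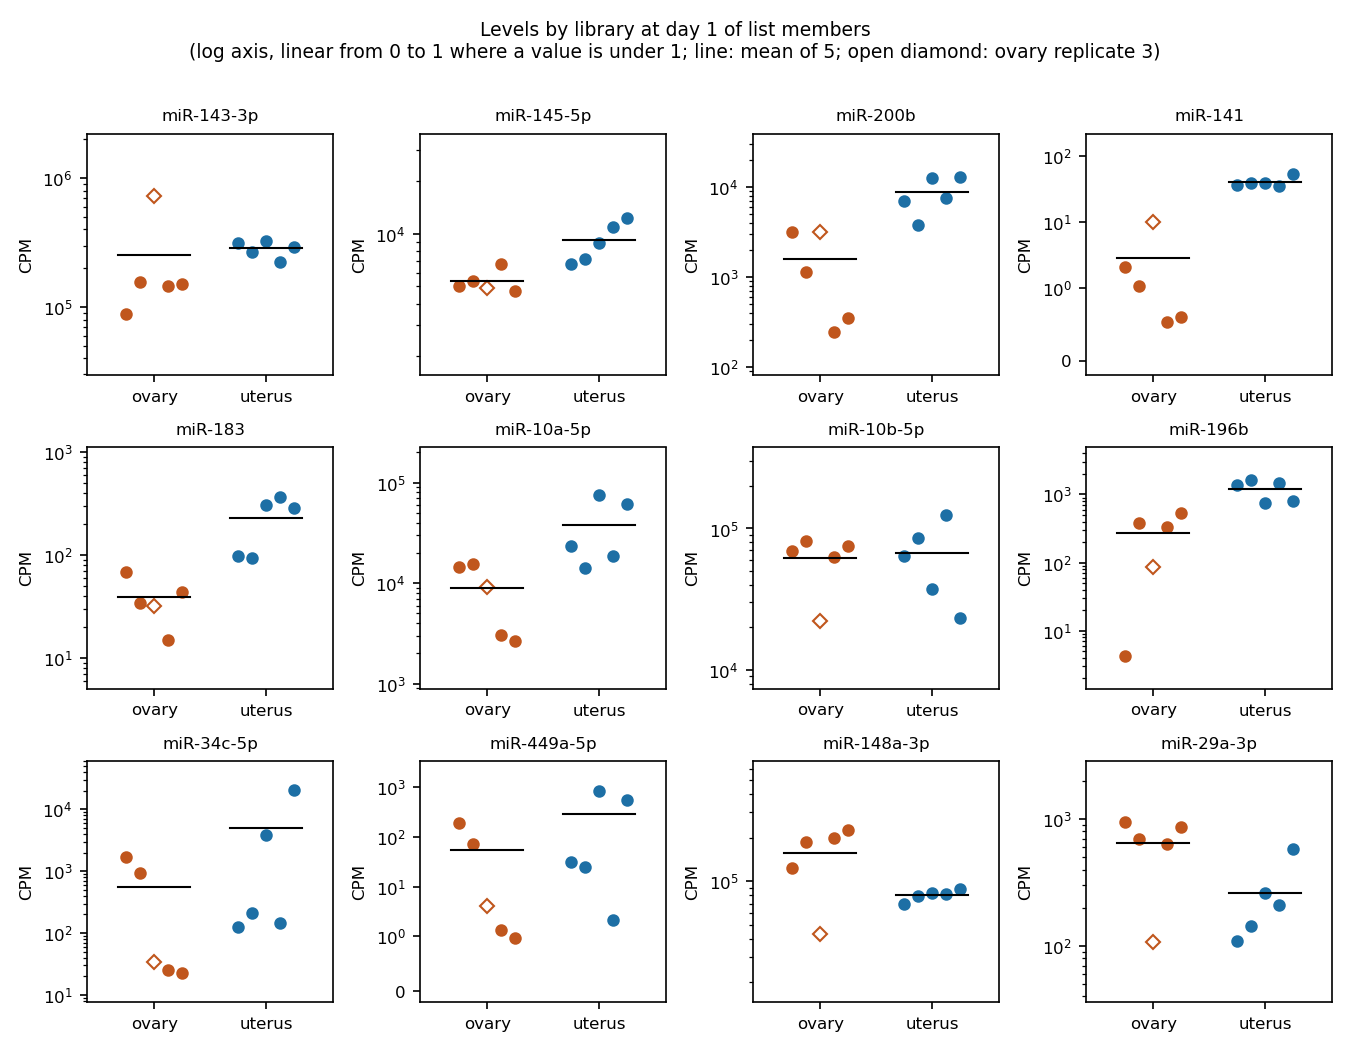
Levels in CPM (log axis, linear from 0 to 1 CPM where a value is under 1) of 12 list members in the 5 ovary and 5 uterus libraries of day 1, with the mean of each group as a line and ovary replicate 3 as an open diamond. The diamond is the highest point of miR-143-3p at 733103 CPM and the lowest of miR-148a-3p, the groups of miR-200b, miR-141, miR-183 and miR-196b are apart, and those of miR-34c-5p and miR-449a-5p spread over each other. These orders are in CPM, which is lowered in ovary replicate 3 for all but miR-143-3p.

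Many lists held 0 calls. The let-7 family, which marks maturing tissue, had 0 of 16 and a median of -0.02, and -0.14 without ovary replicate 3. The imprinted DLK1-DIO3 cluster had 0 of 50 and a median of -0.05, and 0.09 without that library. Both medians changed sign with the scaling, from -0.13 to 0.04 and from -0.16 to 0.11. The miR-17-92 cluster and its paralogs, which drive proliferation, had 0 of 19 calls and a median of -0.77, and -0.84 without ovary replicate 3, with 2 members above 0. miR-17-5p, at 228, 172, 44.4, 1014 and 441 CPM in ovary and 163, 153, 171, 176 and 132 CPM in uterus, was high in ovary replicate 4 and even across the uterus, with a change of -1.08 ± 0.55 (adjusted p = 0.311). In the fit of the 9 day 1 libraries 4 members of that list were lower in uterus.

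The miR-29 family, which holds down collagen genes, had 0 of 5 calls and a median of -0.95, which was -0.12 without ovary replicate 3. miR-29a-3p was at 957, 694, 108, 640 and 867 CPM in ovary and 110, 143, 263, 210 and 581 CPM in uterus. In CPM, ovary replicate 3 was the lowest library of all, and on the scale of the fit it lay inside the uterus range. The change of miR-29a-3p was -1.20 ± 0.60 (adjusted p = 0.292). miR-204-5p, an epithelial and pigment cell miRNA, was at 309, 294, 247, 254 and 226 CPM in ovary and 175, 147, 46.1, 186 and 67.7 CPM in uterus. Its groups did not overlap, and uterus replicates 3 and 5 were lowest, but its change of -1.41 ± 0.62 was not called (adjusted p = 0.195).

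The other lists are given with their median log2 change, followed by that without ovary replicate 3. The miR-199/miR-214 list of stroma had 0 of 5 calls (0.33 and 0.22), the endothelial miR-126 0 of 2 (-0.43 and -0.30), the miR-30 family 0 of 11 (-0.26 and -0.48) and the miR-181 family 0 of 4 (0.69 and 0.53). The miR-99/100 and miR-125 families had 0 of 9 (-0.46 and -0.64), the miR-148/miR-152 family 0 of 4 (-0.44 and -0.69) and the miR-204/miR-211 pair 0 of 3 (-1.01 and -1.08). The red blood cell miRNAs had 0 of 2, and their median of -0.95 was -0.02 without that library. Of 4 liver, gut and kidney miRNAs, 1 was called, miR-215-5p, and 0 without ovary replicate 3 (medians -0.59 and -0.48).

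**Figure D4:**
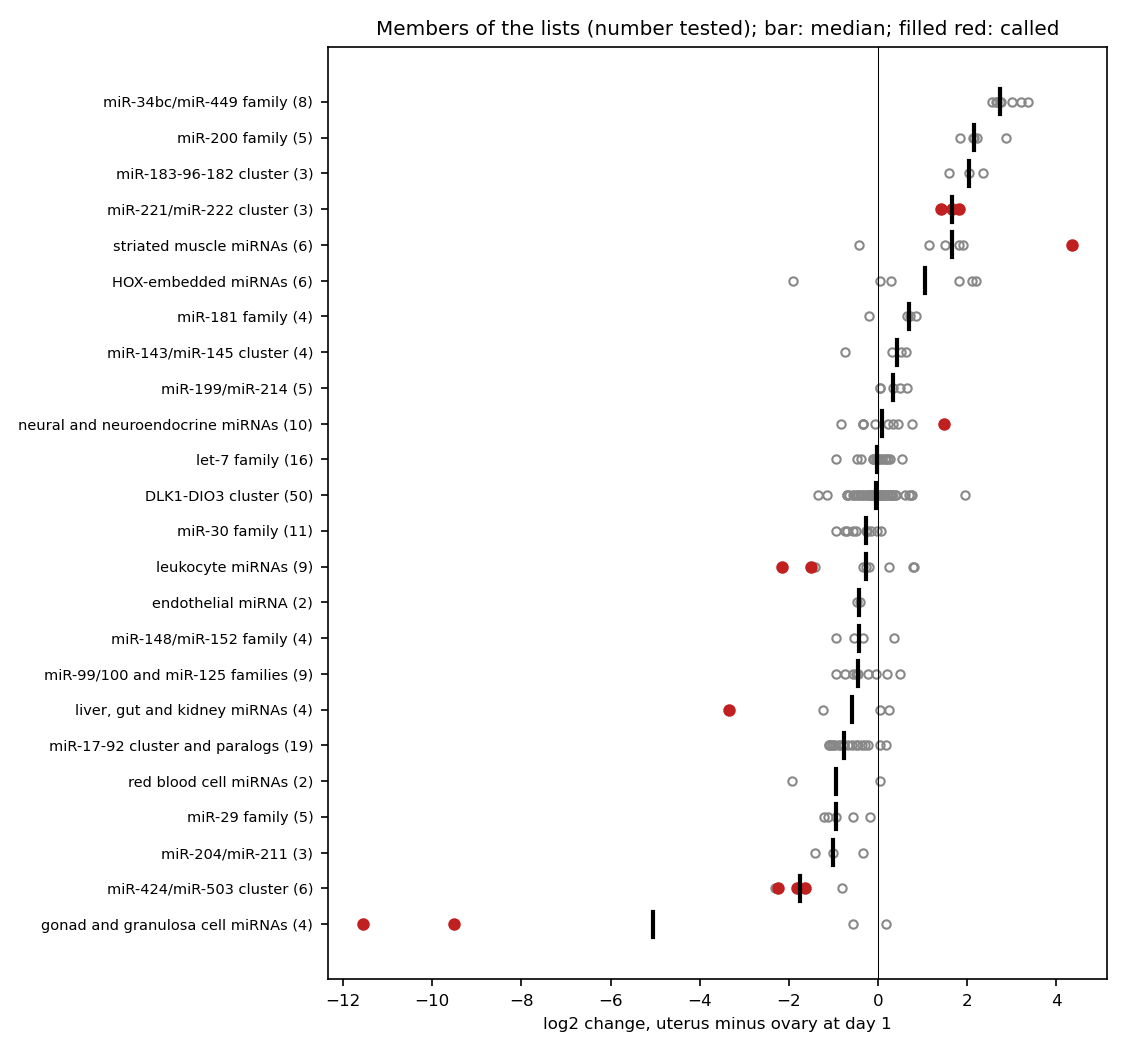
Log2 change (uterus minus ovary at day 1) of every tested member of the lists, with the number tested in brackets, the list's median as a bar and called members in filled red. All members of the miR-221/miR-222 cluster are called, 5 of 5 members of the miR-200 family and 8 of 8 of the miR-34bc/miR-449 family lie above 0 without a call, and both miR-202 arms lie below -9.

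The leading miRNAs were largely the same in both tissues. The 10 most abundant miRNAs took 75.4% ± 8.88 of counts in ovary and 72.3% ± 1.75 in uterus (SD, n = 5), a difference within the spread (exact permutation test, two-sided, p = 0.722, the smallest possible being 0.00794). Ovary replicate 3 was at 91.0% and the other 9 libraries between 68.9% and 75.0%. Without it the difference was 0.79 percentage points (exact permutation p = 0.540). Detected miRNAs, with at least 1 count, numbered 382.6 ± 10.4 in ovary and 384.6 ± 1.67 in uterus (exact permutation p = 0.913). Without ovary replicate 3, which had 365, uterus had 2.4 fewer (exact permutation p = 0.294).

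By mean CPM, 9 of the 10 leading miRNAs were common to both tissues: miR-143-3p, miR-148a-3p, miR-99a-5p, miR-10b-5p, let-7i-5p, miR-26a-5p, let-7f-5p, miR-27b-3p and miR-21-5p. let-7g-5p completed the ovary and miR-10a-5p the uterus. miR-148a-3p led in ovary replicates 2, 4 and 5, miR-99a-5p in ovary replicate 1, and miR-143-3p in all uterus libraries and ovary replicate 3. miR-148a-3p, a repressor of DNA methylation enzymes, was at 124139, 186642, 43424, 200035 and 226620 CPM in ovary and 69537, 78916, 82274, 82038 and 87950 CPM in uterus. In CPM, the uterus was even and lay between ovary replicate 3 and the other 4. On the scale of the fit, ovary replicate 3 was above every uterus library too. The change of miR-148a-3p, -0.94 ± 0.64, was not called (adjusted p = 0.494), while the fit of the 9 day 1 libraries gave -1.06 ± 0.21 (adjusted p = 0.00537).

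miR-99a-5p was at 124327, 89748, 17236, 48654 and 56502 CPM in ovary and 32294, 48614, 28008, 46002 and 42764 CPM in uterus, with a change of -0.75 ± 0.40 that was not called. miR-125b-5p, which shares a cluster with miR-99a, was at 30679, 20050, 2641, 10074 and 14061 CPM in ovary and 7396, 7122, 6482, 8661 and 8634 CPM in uterus. Both were highest in ovary replicate 1 and lowest in ovary replicate 3 in CPM, a scale lowered in replicate 3. miR-125b-5p changed by -0.95 ± 0.46 (adjusted p = 0.275), and without ovary replicate 3 by -1.21 ± 0.45 (adjusted p = 0.0851), not called either way.

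Called only without ovary replicate 3 were also a few miRNAs outside the lists, named because that fit called them. miR-218, carried within the SLIT genes of axon and vessel guidance, was at 234, 148, 703, 138 and 110 CPM in ovary and 610, 874, 391, 581 and 500 CPM in uterus. Apart from ovary replicate 3, all ovary libraries were below all uterus libraries, and the change went from 0.29 ± 0.69 to 1.98 ± 0.64 (adjusted p = 0.0475). On the scale of the fit, ovary replicate 3 was above every uterus library. miR-147-3p, at 0.599 to 2.12 CPM in ovary and 3.59 to 18.0 CPM in uterus, changed by 3.08 ± 0.95 without that library (adjusted p = 0.0371). miR-582-5p, at 0.120 to 0.996 CPM and 2.72 to 6.57 CPM, changed by 3.18 ± 0.98 (adjusted p = 0.0371).

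The use of the 2 arms of a hairpin was compared between the tissues as the log2 ratio of 5p to 3p CPM, with 1 CPM added to each. The scaling of a library touches this ratio only through the added 1 CPM, which pulls it towards 0 where an arm is low. Of 54 hairpins with both arms at 10 CPM or more on average, 0 differed by limma (4 at an unadjusted p under 0.05, and 0 by exact permutation after adjustment). The median size of the difference was 0.28. Without ovary replicate 3, 1 of 54 (1.85%) was called, miR-148b. Its log2 ratio was -7.06, -7.16, -4.58, -7.06 and -7.00 in ovary and -5.94, -6.15, -6.38, -6.32 and -5.74 in uterus. The 3p arm led in all libraries, by less in uterus than in the 4 ovary libraries and least of all in ovary replicate 3. The difference without that library was 0.97 ± 0.21 (adjusted p = 0.0221), and 0.47 ± 0.44 with it (adjusted p = 0.793).

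The tissue difference at day 1 was also set against the mean of those at months 2, 4 and 6. The same fit called 89 miRNAs between uterus and ovary at month 2 (25.4%), 17 at month 4 (4.86%) and 31 at month 6 (8.86%). Of the 17 calls of day 1, 11 were also called at month 2 (64.7% of the day 1 calls and 12.4% of those of month 2), 5 at month 4 (29.4% of each) and 4 at month 6 (23.5% and 12.9%), all with the same sign. The test of the difference itself called 0 of 350 miRNAs in edgeR, and 0 of 353 without ovary replicate 3. With all libraries 39 had an unadjusted p under 0.05, and the lowest adjusted p was 0.101. DESeq2's test called 9.

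miR-202-5p and miR-206 were called at every age. miR-202-5p changed by -10.03 ± 1.31, -8.48 ± 1.22 and -9.50 ± 1.28 at months 2, 4 and 6, and miR-206 by 4.33 ± 0.68, 3.51 ± 0.66 and 4.31 ± 0.68. miR-9-5p was called at all 3 later ages with larger changes than at day 1, 3.00 ± 0.46, 1.99 ± 0.44 and 3.96 ± 0.48. Its day 1 change differed from their mean by -1.49 ± 0.49, which was not called in edgeR (adjusted p = 0.166) and was in DESeq2 (adjusted p = 0.0487).

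miR-1 and miR-133a-3p, not called at day 1 with all libraries, were called at each later age, miR-1 at 3.57 ± 0.68, 2.90 ± 0.66 and 2.11 ± 0.64 and miR-133a-3p at 2.71 ± 0.49, 2.83 ± 0.49 and 2.01 ± 0.47. Their day 1 changes without ovary replicate 3, 2.66 and 2.50, lay within those ranges.

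miR-221 and miR-222 were called at day 1 and at no later age. miR-221-3p changed by 0.63 ± 0.33, 0.23 ± 0.33 and 0.41 ± 0.33 at months 2, 4 and 6, and miR-221-5p by 0.61 ± 0.34, 0.34 ± 0.34 and 0.49 ± 0.34. The difference between day 1 and later ages was 1.24 ± 0.39 for miR-221-3p (adjusted p = 0.166) and 1.32 ± 0.39 for miR-221-5p (adjusted p = 0.125), not called in edgeR. For miR-221-5p the test of DESeq2 called it (adjusted p = 0.0471). miR-424-3p was at -1.94 ± 0.46, -1.12 ± 0.45 and -1.22 ± 0.45 later, called at month 2, and miR-450-5p at -1.07 ± 0.39, -1.32 ± 0.39 and -1.01 ± 0.39, called at months 2 and 4. miR-215-5p, whose day 1 call rested on ovary replicate 3, had the largest gap among the day 1 calls, -3.61 ± 0.94 with that library (adjusted p = 0.101) and -2.09 without it (adjusted p = 0.488).

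**Figure D5:**
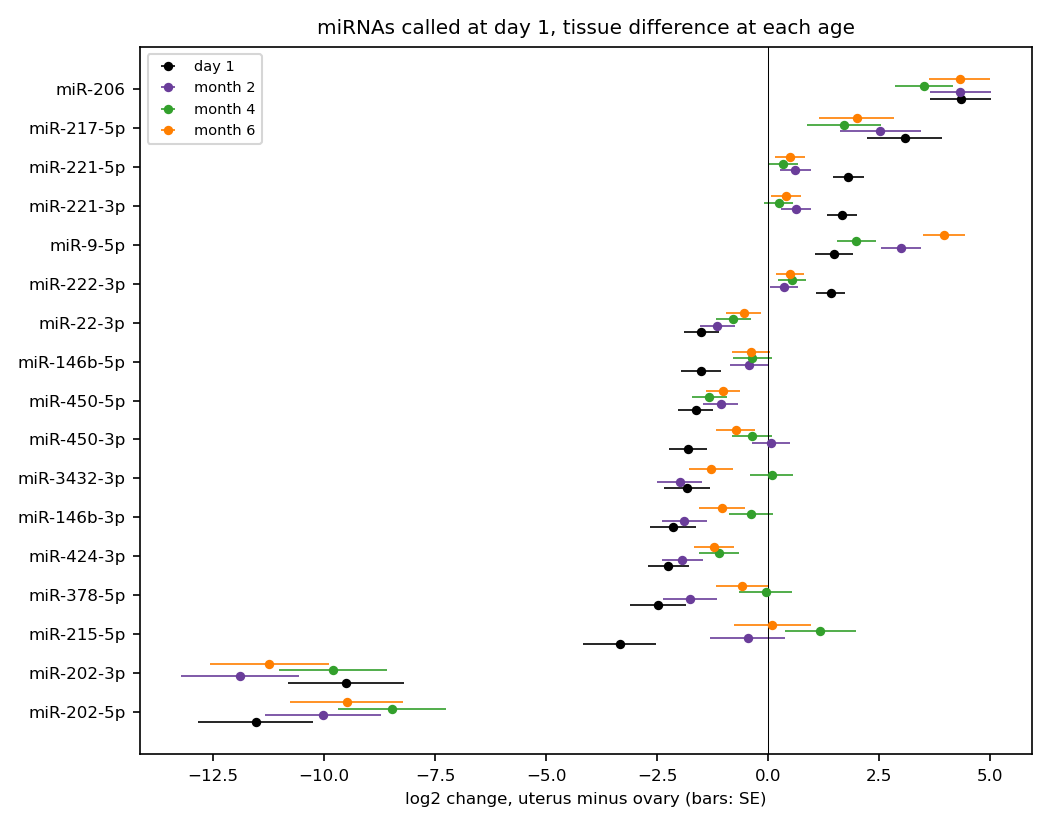
Log2 change (uterus minus ovary, horizontal axis) with its SE as a bar for the 17 miRNAs called at day 1, at day 1 and at months 2, 4 and 6. The miR-202 arms and miR-206 are far from 0 at every age, miR-9-5p is larger at months 2, 4 and 6 than at day 1, and miR-221 and miR-222 are largest at day 1. The miR-202-3p values depend on the model's prior count, since it had 0 counts in uterus at day 1.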

How the data were processed

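Small RNA of ovary and uterus was sequenced. The authors deposited whole-number read counts per mature miRNA and library, with no normalization, and these were used as deposited. Tools named in the submitters' processing notes are RSEM 1.3.0, Bowtie 1.0.1 and cutadapt 1.16, without their roles. The build, the miRNA annotation and the treatment of reads matching several miRNAs are not given in the sources used here. Groups came from the labels. Libraries of the same number in both tissues are not said to share a goat, so no pairing was used.

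R 4.3.3 was used, with edgeR 4.0.16 (filterByExpr, which kept 350 of 427 miRNAs, TMM factors, quasi-likelihood test), limma 3.58.1 for arm ratios and DESeq2 1.42.0 as an alternative. All 40 libraries entered 1 fit. The SE is the size of the log2 change divided by the root of F. Intervals and floors (3 counts) cover counting error only. Named were the calls of day 1, 12 a direction at most from a mean of 10 CPM, the 10 most abundant miRNAs of each tissue, list members, and, chosen after their values were seen, the calls under 10 CPM and those gained or lost without ovary replicate 3. The members and the 27 lists were chosen with earlier results of these data known. The lists of other epithelial, miR-506 family and pluripotency miRNAs had no entry tested. Scripts were tested on simulated data. Of 263 hairpin names, 261 matched a RefSeq goat gene, used for neighbours within 50 kb. Alternatives were other scalings, filters and tests, day 1 libraries alone, a replicate block and each replicate left out. Those leaving out doubted libraries of later ages were added after seeing the data.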

Additional observations from a re-analysis of the deposited data

Results flagged for a closer look

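Single libraries that lay far from the other 4 of their group, by the gap to the nearest library as a share of the group's range on the log2(CPM + 1) scale (Dixon's test), numbered 16 among 132 group values examined. Chance alone marks about 1 in 20. Of the 16, 10 were in ovary replicate 3. That library was high in miR-143-3p (733103 CPM) and in the share of counts of the 10 most abundant miRNAs (91.0%). It was low in miR-10b-5p (22050 CPM), let-7i-5p (10090 CPM), let-7f-5p (9021 CPM), let-7g-5p (4417 CPM), miR-27b-3p (6643 CPM), miR-29a-3p (108 CPM), miR-542-5p (3.86 CPM) and miR-450-3p (2.37 CPM). Its CPM of all miRNAs but miR-143-3p is lowered by the share of that miRNA.

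The other 6 were spread over 5 libraries. Uterus replicate 3 was low in miR-206 (36.0 CPM), uterus replicate 2 high in miR-451-5p (78.0 CPM) and uterus replicate 5 high in miR-141 (54.1 CPM). Uterus replicate 4 was high in let-7f-5p (59559 CPM) and in miR-3432-5p (240 CPM). Ovary replicate 4 was high in miR-217-5p (1.72 CPM).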

How the results depend on the processing

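The 17 calls of day 1 became 29 with library totals alone, 38 with DESeq2's test, 36 without 6 doubted libraries of later ages, 60 without 7 and 58 on the 9 day 1 libraries. Leaving out each replicate gave 14 to 27, the highest without ovary replicate 3. Library totals alone gave 19 higher and 10 lower. The 0 calls against later ages became 3 with DESeq2 size factors, 9 with DESeq2's test, and 0 to 5 with a replicate left out, the highest without ovary replicate 4. The 0 arm ratio calls became 1 with a 1 CPM minimum (miR-202, whose 3p arm was at 0 counts in uterus), and 0 to 1 with a replicate left out. Without ovary replicate 3 the differences in detected miRNAs (-2.4) and in the share of the 10 most abundant (0.79 points) changed sign. The range over single replicates was -2.4 to 4.1 and -4.73 to 0.79. miR-143-3p changed sign to 0.16 with library totals alone, 1.16 without ovary replicate 3, 1.06 without the 7 libraries and 1.21 on the 9 day 1 libraries, with a range of -1.03 to 1.16 over single replicates left out, and miR-218 ranged from -0.024 without ovary replicate 5 to 1.98. Beyond what a setting changes by its construction, the cause was not tested.

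With the replicate number as a block, 13 miRNAs were called over all 40 libraries and 8 over the 10 of day 1, where miR-143-3p was at 0.59 and 0.60. The calls of miR-450-5p, miR-3432-3p and miR-146b-3p were lost only under such a block. Deviations of same-numbered ovary and uterus libraries correlated at -0.20, -0.15, 0.03, 0.27 and -0.34, and those of unlike numbers at -0.32 to 0.31. With so few libraries and such a spread, these values cannot tell paired from unpaired libraries. Whether the same goat gave both is not known from the labels. Counts under 3 in a library, at most 0.428 CPM, are below the floor.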
